A study of Mus musculus with 22 samples.

Results

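The RNA described here is what was left in the supernatant after ribosomes carrying a green fluorescent protein tag had been pulled out of dissected mouse hippocampal CA1 tissue. It was measured in 3 of the 11 libraries of the series, which gave 6 of its 22 samples because each library was run once with paired-end and once with single-end reads. One library came from the dendrite layer of home cage mice, one from the dendrite layer after fear conditioning and one from the soma layer after fear conditioning. Both runs of a library were treated as 1 replicate, so that 2 dendrite libraries stood against 1 soma library. Of 29848 genes in the tables, 2768 had a mean of at least 1 FPKM (a read density corrected for transcript length and library size) over the 3 libraries in the paired-end run and were compared. In 1328 of these, both dendrite libraries lay on the same side of the soma library in both runs.

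All groups carried the Camk2a-tTA and tetO-EGFP-L10a transgenes on a C57BL/6 background. Camk2a-tTA drives the tagged ribosomal protein L10a in forebrain excitatory neurons, so the pulldown is directed at these cells, and the supernatant holds RNA of the other cell types in the tissue together with neuronal RNA that was not captured. The remaining 8 libraries were the immunoprecipitates, 4 of dendrite and 4 of soma layer, with 2 from each behaviour. The labels give no age and do not say whether libraries came from separate animals, so differences between libraries may be technical. No home cage soma supernatant is among the samples analysed, and the behaviour of the home cage dendrite library therefore differs from that of the soma library as well as its layer.

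CA1 pyramidal neurons have their cell bodies packed in a thin layer and send dendrites into a neuropil that also holds axons, astrocytes, oligodendrocytes, microglia and scattered interneurons. A limited set of neuronal mRNAs, such as those for the kinase CaMKIIα and several postsynaptic scaffolds, is carried into dendrites, whereas most neuronal mRNAs stay near the nucleus. Astrocytes also carry some mRNAs into their fine processes, and oligodendrocytes carry Mbp mRNA towards the myelin sheath.

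Levels are FPKM of the coding part of each transcript (from the 5′ leader through the open reading frame to the beginning of the 3′ untranslated region), multiplied by a factor for each library that puts the median gene of the 3 supernatants on 1 level. Differences are of log2(scaled FPKM + 1), dendrite minus soma, which understates the change of low genes. A gene passed the difference rule when both dendrite libraries lay at least 1 away from the soma library on this scale in the paired-end run and on the same side of it in the single-end run. The rule was passed upwards by 263 genes, which is 9.5% of those compared, and downwards by 235, which is 8.49%. Without the requirement of size, 790 genes (28.5%) lay above the soma library in both dendrite libraries and both runs, and 538 (19.4%) lay below it. With FPKM as deposited the same rule gave 398 higher and 128 lower genes, so that the higher share of called genes moved from 52.8% to 75.7%. That change moved the median difference of all genes compared from 0.25 to 0.56. Every list below should be read against the median of 0.25, and its counts against the 9.5%, 8.49%, 28.5% and 19.4% of all genes.

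No gene passed limma's moderated test over the 3 supernatants (Benjamini-Hochberg adjusted p, smallest 0.658), which had 1 residual degree of freedom. An unadjusted p under 0.05 was reached by 179 genes, 48 higher and 131 lower, and with robust moderation no gene passed either (168 at an unadjusted p under 0.05). Fitted over all 11 libraries, limma passed 80 genes, of which 19 were also past the difference rule upwards and 31 downwards. All 80 averaged under 1 FPKM in the immunoprecipitates. The counts and values that follow are therefore descriptions of 3 libraries. The dendrite libraries differed from each other by at least 1 in the same direction in both runs in 210 genes (7.59%), against 475 (17.2%) between the home cage dendrite and the soma library and 649 (23.4%) between the conditioned dendrite and the soma library. In the paired-end run alone, which sets the size in the rule, the dendrite libraries were at least 1 apart in 1034 genes, more than the 991 between the home cage dendrite and the soma library, and the third pair in 1481.

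**Figure D1:**
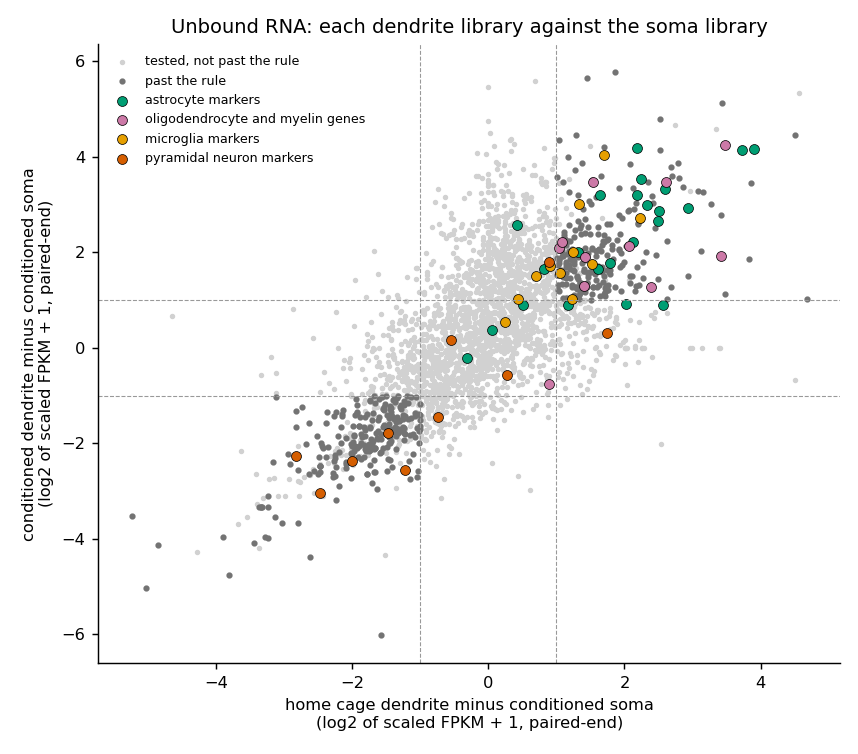
Each point is 1 of 2768 genes, with the paired-end difference (log2 of scaled FPKM + 1) of the home cage dendrite library from the soma library on the x axis and that of the conditioned dendrite library on the y axis; dashed lines mark a difference of 1. Of the coloured glial markers 22 of 23 astrocyte and all 11 microglial genes lay above the soma library in both dendrite libraries and both runs, and 5 of 10 pyramidal neuron markers passed the rule downwards.

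Among the lists with at least 4 genes compared, those of astrocytes, oligodendrocytes and microglia had the highest medians. Of 26 astrocyte markers 23 reached the minimum level, 15 passed the rule upwards and none downwards, and the median difference was 2.17 in the paired-end and 2.44 in the single-end run. Summed over these 23 genes, the level was 315 in the home cage dendrite library and 451 in the conditioned dendrite library, against 33.0 in the soma library. In bulk tissue such as this, fewer cells of a type and less RNA per cell cannot be told apart.

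Glul, which encodes the glutamine synthetase that astrocytes use to recycle glutamate (chr1:155747075-155755510, mm9, overlapping AK044033), had 97.4 and 117 scaled FPKM in the home cage and conditioned dendrite libraries and 5.6 in the soma library. The single-end run gave 88.8 and 105 against 16.9. Its paired-end mean over the dendrite libraries, 107 ± 13.7 (SD, n = 2), was 19.1 times the soma level. Apoe, the lipid carrier secreted by astrocytes, stood at 44.7 and 59.8 against 2.44 in the paired-end run and at 86.0 and 134 against 10.5 in the single-end run. Both genes passed the rule, and no dendrite value came near the soma value of its run.

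The largest upward difference among the genes that qualified for naming, 4.49 ± 0.03 (SD over the 2 dendrite libraries), belonged to Fam107a, an actin-associated gene prominent in astrocytes (chr14:9131006-9142290, mm9). Its levels were 45.4 and 44.2 in the dendrite libraries and 1.05 in the soma library, a ratio of 42.9, and in the single-end run they were 128 and 122 against 8.85. The glutamate transporter Slc1a2 had 33.2 and 42.6 against 4.99, and Gja1, the gap junction protein connexin 43, had 4.72 and 21.8 against 0.26. Gja1 thus differed between the dendrite libraries more than Slc1a2 did. Both genes passed the rule, which by itself sets them apart from the soma library. The water channel Aqp4 was listed at 0 in the soma library in both runs, with 4.64 and 5.29 in the dendrite libraries in the paired-end run and 5.90 and 19.6 in the single-end run. Gfap, the intermediate filament of astrocytes, stood at 6.57 and 17.5 against 0.59.

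Several of the 15 largest upward differences belonged to genes outside the marker lists. The metallothioneins Mt2 and Mt1, which bind zinc and copper, had levels of 22.0 and 73.7 against 1.14 and of 33.4 and 105 against 4.98. Fabp7, a fatty acid binding protein of radial glia and astrocytes, had 8.0 and 18.0 against 0.30. In all 3 genes the conditioned dendrite library was more than 2-fold above the home cage one in the paired-end run. It was less than 2-fold above in the single-end run, with 66.3 and 116 for Mt2, 117 and 166 for Mt1 and 25.3 and 49.1 for Fabp7. Over all genes compared, the median of home cage minus conditioned dendrite was -0.40 in the paired-end run. Sparcl1, which encodes the secreted synapse-organising protein hevin, had 28.9 and 48.9 against 3.27. Gstm1, a glutathione transferase, had 16.5 and 13.5 against 0.81. Anapc13, a small subunit of the anaphase-promoting complex, had 33.5 and 24.7 against 1.36, and in the single-end run 7.14 and 6.84 against a soma value listed at 0. Lass2, a ceramide synthase whose model overlaps Setdb1, had a mean that rested on the conditioned dendrite library, with 1.94 and 52.6 against 0.07.

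The oligodendrocyte list held 11 genes that could be compared of 22, and 10 passed the rule upwards, with a median difference of 1.84 and none below. Mbp, myelin basic protein, had 44.2 and 81.3 against 6.45 in the paired-end run and 87.4 and 116 against 10.6 in the single-end run. Mbp passed the rule, which places every dendrite value above the soma value of its run. Mobp had 37.7 and 12.7 against 2.63 in the paired-end run, and the transferrin gene Trf 2.16 and 11 against 0.08. The order of the dendrite libraries was reversed in the single-end run in both genes. Mobp then had 71.55 and 78.9, and Trf 11.4 and 5.14. The myelin-associated glycoprotein gene Mag was listed at 0 in the soma library, with 1.06 and 3.25 in the dendrite libraries. Sirt2 was the exception in the list, with 3.25 and 0.36 on either side of 1.29.

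All 11 microglial genes that could be compared, of 17, lay above the soma library in both dendrite libraries and both runs, and 7 of them passed the rule, with a median difference of 1.32. Tyrobp, a signalling adaptor of microglia, was listed at 0 in the soma library in both runs and had 3.69 and 5.6 in the dendrite libraries. Csf1r, the receptor on which microglia depend, had 3.53 and 4.34 against 0.58, and the complement genes C1qb and C1qa had 3.99 and 24.2 against 0.54 and 1.5 and 3.24 against 0.06. C1qb showed the widest gap between the dendrite libraries of these 4 in the paired-end run only. Its single-end values were close, at 7.19 and 8.01 against 0.59. Vascular genes were mostly under the minimum: of 16, Ly6c1 and Bsg could be compared, and the endothelial Cldn5 had 0.46 and 0.06 with a soma value of 0. Markers of the dentate gyrus and of the choroid plexus did not reach the minimum in any of 7 genes each, and the choroid plexus transcript Ttr had 0.07 and 0.60 against 0.22. Over the astrocyte, oligodendrocyte, precursor, microglial and vascular lists together, 33 of 48 genes passed the rule upwards and none downwards, and these 33 were 12.5% of all genes that passed upwards.

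**Figure D2:**
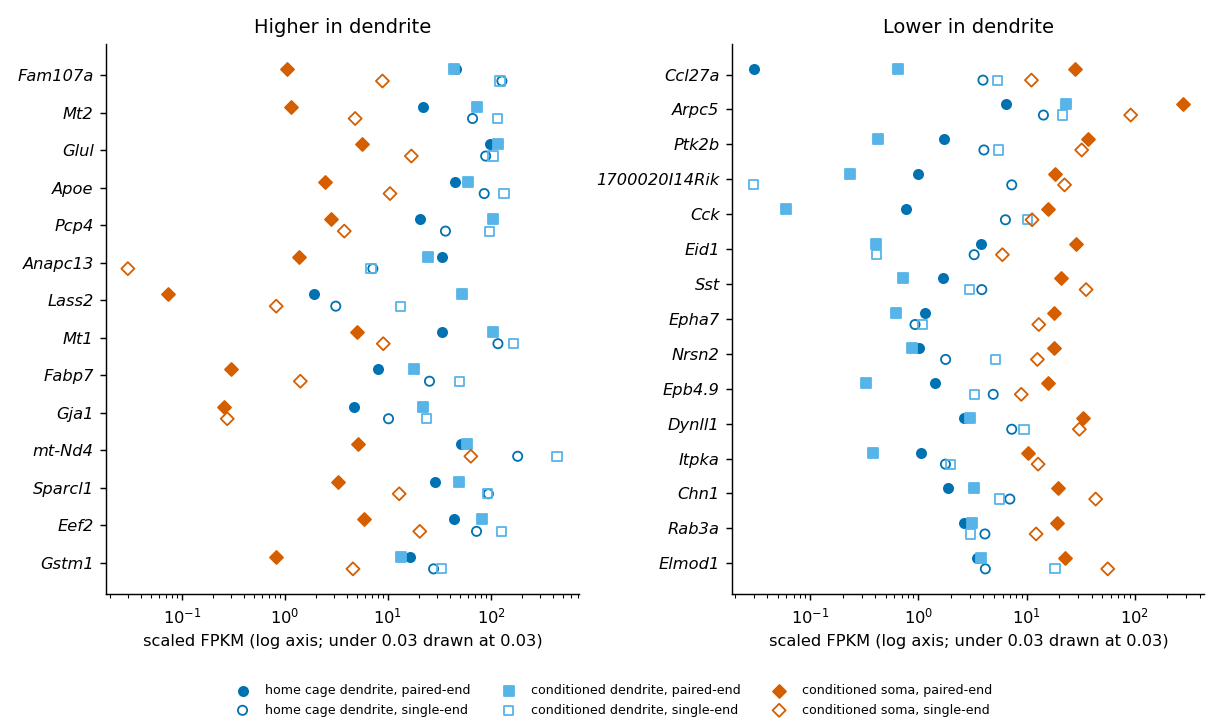
Scaled FPKM (log axis) in each of the 3 supernatant libraries for 14 of the genes with the largest upward and the 15 with the largest downward differences; filled symbols are the paired-end and open symbols the single-end run. All genes shown passed the difference rule, which by itself sets the soma symbols apart from both dendrite symbols of the same run. The narrowest single-end gap is that of Cck, at 10.1 against 11.3.

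Several markers of pyramidal neurons stood in the other direction. Of 15 pyramidal neuron markers 10 could be compared, 5 passed the rule downwards and none upwards, and the median difference was -1.36 in the paired-end and -1.99 in the single-end run. Itpka, a spine-associated inositol trisphosphate kinase (chr2:119568073-119576801, mm9), had 1.05 and 0.38 in the dendrite libraries and 10.4 in the soma library. Chn1, the Rac regulator chimaerin, had 1.87 and 3.24 against 19.4, and the single-end run gave 7.01 and 5.62 against 43.6. Both were several times higher in the soma library in both runs.

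Neurod6, a transcription factor of excitatory forebrain neurons, had 0.34 and 0.04 against 4.38. The CA1-enriched Wfs1 had 0.42 and 0.14 against 2.94, and Nrgn, the calmodulin-binding protein neurogranin, 3.11 and 0.63 against 8.63. Nrgn is counted among textbook dendritic mRNAs too, and it was the gene of that list that passed the rule downwards. In the single-end run its soma value was 120, against 4.23 and 12 in the dendrite libraries. Hpca, the calcium sensor hippocalcin, was below the soma library in both runs without passing the rule (4.13 and 2.11 against 7.55).

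Of the 10 pyramidal markers 6 lay below the soma library in both runs and 2, Camk2a and Cabp7, above it. Camk2a mRNA, the classical dendritic transcript, stood at 93.6 and 176 in the dendrite libraries and 50.1 in the soma library in the paired-end run and at 299 and 281 against 78.9 in the single-end run. Every dendrite value was above the soma value of its run. The home cage difference of 0.89 kept it from passing the rule, and its mean difference was 1.34 ± 0.64 (SD, n = 2). The remainder of its 3′ UTR had levels of 205 and 312 against 60.6.

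Of 24 dendritic mRNAs that could be compared, 4 passed the rule upwards and 1 downwards, and 11 lay above the soma library in both runs against 3 below. The median of the list was 0.41, or -0.09 without the conditioned dendrite library, where the median of all genes was -0.29. Shank1, a postsynaptic scaffold whose mRNA is known in dendrites (chr7:51565634-51612905, mm9), had 17.4 and 32.1 against 4.48 in the paired-end run and 57.9 and 46.8 against 9.84 in the single-end run. Dlg4, which encodes the scaffold PSD-95 (chr11:69832107-69858395, mm9), had 11.9 and 14.2 against 3.86 and in the single-end run 24.8 and 31.9 against 12.6. Both scaffolds passed the rule, which requires every dendrite value to exceed the soma value of its run. The elongation factor gene Eef2 had 43.3 and 81.1 against 5.8, the largest difference of the list at 3.15. The neurotrophin receptor Ntrk2, which astrocytes also express, had 4.33 and 5.83 against 1.23.

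Other transcripts of this list were higher in the dendrite libraries by less. Ppp1r9b, which encodes the spine protein spinophilin, had 50.6 and 115 against 34.1, and Mtap2, the dendritic microtubule protein MAP2, had 16.8 and 32.8 against 15.9. Ddn, the dendritic protein dendrin, had 12.7 and 8.16 against 5.69. All 3 lay above the soma library in both runs, and the home cage value of Mtap2 was within 1 FPKM of it. Arc, a dendritically transported immediate early gene, was under the minimum (0.97 and 0.55 against 1.09).

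Postsynaptic scaffolds other than Shank1 and Dlg4 behaved unevenly. Of 15 compared, 4 passed the rule upwards, the other two being Shank2 (2.41 and 3.99 against 0.50) and Dlgap3 (2.79 and 2.34 against 0.46), and none passed downwards. Dlgap1 had 12 and 111 against 11.3 in the paired-end run, where its mean of the dendrite libraries rested on the conditioned one. The single-end run gave 23.2 and 28.6 against 24.2, on both sides of the soma library. Of 21 actin regulators of spines compared, 6 passed the rule downwards and 1, Marcks, upwards, while 9 lay below and 3, among them Ppp1r9b and Ddn, above the soma library in both runs. Those below included Wasf1 (2.11 and 0.73 against 9.76), profilin 1 (Pfn1, 3.05 and 2.20 against 12.7) and Ppp1r9a, the neurabin gene (2.18 and 2.34 against 10.6).

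Receptor and channel mRNAs lay below the soma library more often than above it. Among 8 glutamate receptor genes 2 passed the rule downwards, both NMDA receptor subunits: Grin2a had 0.39 and 0.55 against 4.48 and Grin2b 1.1 and 1.26 against 6.42. The AMPA receptor subunit Gria2 was below in both runs, at 1.76 and 11.4 against 23.2, with the conditioned dendrite library less than 1 away on the log2 scale. The upward gene was Grm3, a metabotropic receptor also made by astrocytes, with 1.44 and 1.94 against 0.06. All 4 GABA-A receptor genes compared lay below the soma library in both runs, and Gabrb2 passed the rule. Of 8 voltage-gated channels Kcnd2 passed downwards (0.27 and 0.34 against 3.24) and Kcnc1 upwards (1.79 and 1.41 against 0.11). The median of the glutamate receptor list was -0.62, or -0.26 with FPKM as deposited, and those of the GABA-A receptor and channel lists were -1.23 and -0.99, or -0.95 and -0.54.

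Presynaptic vesicle genes had a median of -0.50. Of 22 genes 10 lay below the soma library in both runs and 2 above, against 19.4% and 28.5% of all genes. The rule was passed downwards by 2 (9.09%), near the 8.49% of all genes. These were Rab3a, a small GTPase of synaptic vesicles whose model overlaps Mpv17l2, with 2.61 and 3.16 against 19.2, and the dynamin gene Dnm1 with 2.61 and 3.45 against 9.49. The most abundant members were closer in the paired-end run: Snap25 had 70.3 and 136 against 155 and Vamp2 86.6 and 76.9 against 104. Snap25 was also below in the single-end run (96.5 and 124 against 166). Vamp2 was above the soma library there (98.1 and 99.3 against 89.1). With FPKM as deposited the median of this list was -0.06, and 2 genes passed upwards and 1 downwards. The list of tubulins, microtubule-associated proteins and stathmins had 2 downward genes of 18 (11.1%, against 8.49% of all genes), among them Mtap1b at 6.55 and 9.48 against 40.6.

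Genes of calcium signalling split. Calm2, one of several calmodulin genes, had 3.93 and 13.2 against 34.2, and the calcineurin subunits Ppp3ca and Ppp3r1 had 11.1 and 19.6 against 52.9 and 1.1 and 0.57 against 9.04. These passed the rule downwards together with Nrgn. Calm3, which encodes the same protein as Calm2, had 26.9 and 17.9 against 23.0, on both sides of the soma library. Upward genes of this list were Pcp4, Hpcal4 and Ncald. Pcp4, a small modulator of calmodulin that marks CA2 and whose model overlaps Igsf5, had 20.7 and 104 against 2.77, with 36.2 and 97.2 against 3.77 in the single-end run.

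**Figure D3:**
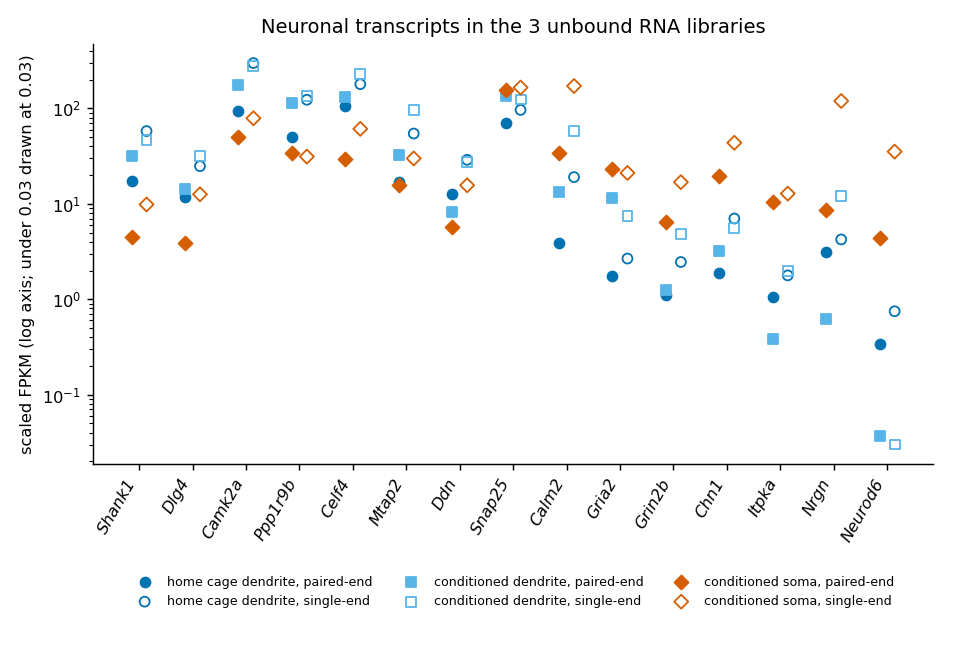
Scaled FPKM (log axis) of 15 neuronal genes in the 3 supernatant libraries, filled for the paired-end and open for the single-end run; the genes were picked from the lists after their values were seen. From Shank1 to Ddn the dendrite symbols lie above the soma symbol of the same run, and from Snap25 to Neurod6 below it.

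Interneuron markers shared no direction. The GABA-synthesising enzymes Gad1 and Gad2 were higher in the dendrite libraries, at 4.68 and 9.02 against 1.44 and at 4.14 and 7.76 against 0.17. Somatostatin (Sst) was lower, at 1.69 and 0.73 against 21.0, and the single-end run gave 3.86 and 2.94 against 35.6. Cholecystokinin (Cck), made by interneurons and pyramidal cells, had 0.76 and 0.06 against 15.7, but in the single-end run 6.38 and 10.1 against 11.3. Neuropeptide Y (Npy) lay on both sides (9.24 and 30.5 against 13.4). In all, 3 of 6 genes passed the rule upwards and 2 downwards.

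Further large downward differences belonged to single genes of other functions. Ptk2b, a calcium-regulated tyrosine kinase (chr14:66772693-66899889, mm9), had 1.72 and 0.42 against 37.3 and in the single-end run 4.04 and 5.48 against 32.4. Epha7, an ephrin receptor, had 1.15 and 0.62 against 17.8, and Dynll1, a dynein light chain, 2.63 and 3.02 against 33.5. The soma level of these 3 genes was 34.8, 20.1 and 11.9 times the mean of the dendrite libraries. Arpc5, a subunit of the Arp2/3 complex whose model overlaps AK188430, reached 280 in the soma library, against 6.41 and 23.4. Ccl27a, which shares its position with Il11ra1 and other models, had 0.0004 and 0.65 against 28.1 in the paired-end run but 3.96 and 5.37 against 11.1 in the single-end run. The sources used here do not state whether counting used strand, so reads of overlapping models cannot be told apart.

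Ribosomal protein mRNAs lay above the soma library more often than below it. Of 40 genes of the large subunit 9 passed the rule upwards and none downwards, with a median difference of 1.12 and 24 above the soma library in both runs, none below. The small subunit had 4 upward genes of 29 (13.8%, against 9.5% of all genes), a median of 0.76, and 11 above against 2 below. Rpl29 had 18.0 and 19.0 against 2.49, Rps29 65.4 and 15.9 against 3.69, and Rpl4 20.1 and 26.6 against 7.92. Rpsa, the most abundant of the small subunit genes, was below the soma library in the paired-end run (90.1 and 241 against 329). Its single-end values lay on both sides (85.9 and 253 against 117). Without the conditioned dendrite library the small subunit median was -0.07 and that of the large subunit 0.82, against -0.29 over all genes. These genes have many near-identical pseudogenes, and the sources used here do not state how the authors' counting divided such reads.

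The wider translation machinery showed no common direction: of 18 translation factors Eef2 and Pabpc1 passed upwards, Eif2s2 passed downwards, and the median was -0.24, or 0.26 with FPKM as deposited. Nuclear genes of oxidative phosphorylation had 2 upward and 2 downward genes of 42 and a median of -0.04, or 0.27 with FPKM as deposited. Of 13 mitochondrially encoded genes 2 had a row, and both passed upwards. The fragment annotated mt-Nd4 had 50.7 and 58.3 against 5.11. Atpase6 had 970 and 1282 against 211, and since the annotation gives it models on the mitochondrial genome and on chromosome 1, its source is uncertain.

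Nuclear and regulatory RNAs form small lists. Malat1, a nuclear long noncoding RNA, had 38.0 and 70.0 against 88.5 in the paired-end and 40.1 and 50.1 against 59.1 in the single-end run, so that both dendrite libraries were below the soma library without passing the rule. Meg3 was under the minimum. None of 11 splicing factors passed the rule. Of 24 other RNA-binding proteins Celf4 passed upwards, at 106 and 133 against 29.3, and Hnrnpm and Hnrnph1 passed downwards. Egr1, an immediate early transcription factor, had 0.18 and 0.86 against 2.95, and it was 1 of 3 such genes that could be compared, of 20.

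**Figure D4:**
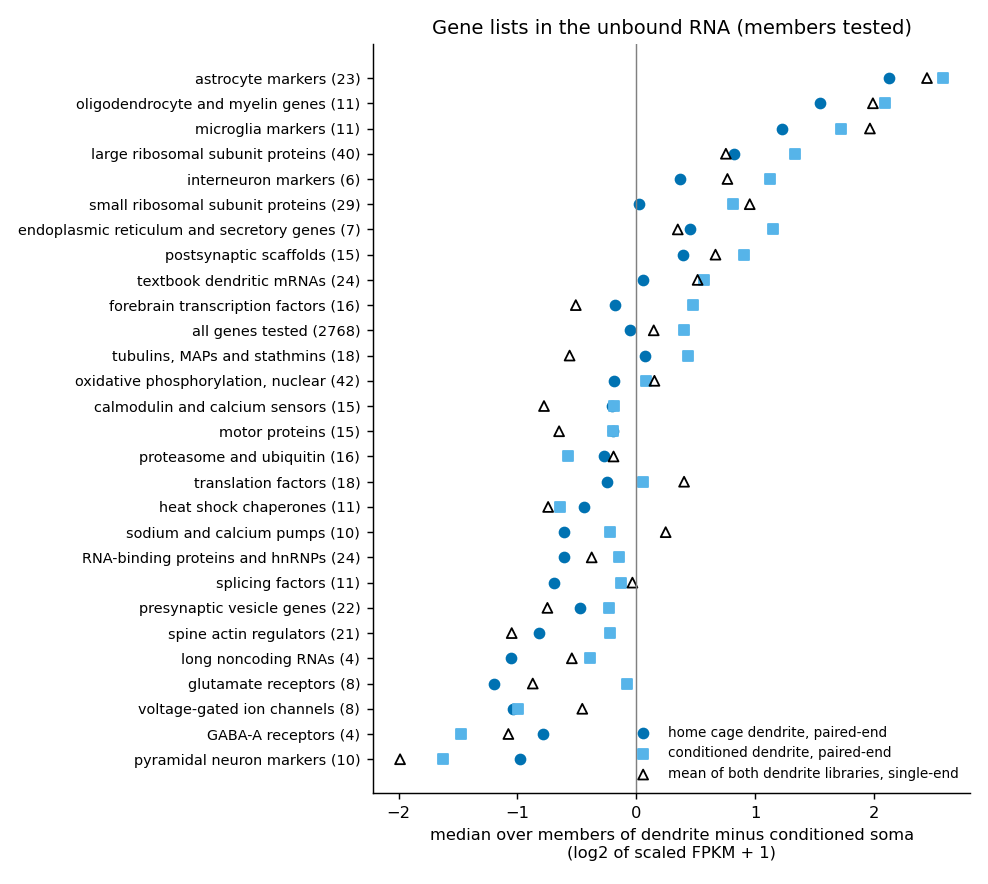
Median difference (log2 of scaled FPKM + 1) from the soma library over the members of each list with at least 4 genes compared, for each dendrite library in the paired-end run and for the mean of both in the single-end run; the number of genes is in brackets. Astrocyte, oligodendrocyte and microglial lists lie above 1 in all 3 measures, and the pyramidal neuron list near or below -1, at -0.98 in the home cage dendrite library.

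In most of the remaining lists genes passed in both directions, and their counts stand against 9.5% upwards and 8.49% downwards over all genes. Motor proteins had 1 upward and 2 downward genes of 15, the sodium and calcium pumps 2 and 1 of 10, heat shock chaperones 1 and 1 of 11, the proteasome and ubiquitin list 1 and 3 of 16, and forebrain transcription factors 2 and 2 of 16. Among the upward pumps was the astrocytic Atp1b2, with 4.82 and 8.22 against 1.64, whereas the plasma membrane calcium pump Atp2b1 had 0.80 and 3.03 against 11.8. None of the 7 genes compared from the endoplasmic reticulum list passed, and neither did the 2 haemoglobin genes. Hbb-b1, a globin gene of red blood cells, had 0.40 and 14.2 against 0.24 in the paired-end run and lay on both sides in the single-end run.

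The part of each transcript that the rule did not use showed the same sides. In the rest of the 3′ UTR, 140 of the 263 higher genes had a mean of at least 1, and in 121 of these (86.4%) both dendrite libraries were above the soma library, against 422 of 1157 (36.5%) of all genes. Among 102 of the lower genes, 80 (78.4%) had both dendrite libraries below, against 452 of 1157 (39.1%) of all genes. Of the genes reported here by the rule for naming that passed the difference rule and had such a value, all 14 upward and all 16 downward ones had the same sign in this part. These are the same libraries, so this part shares their cells and their preparation. Ptk2b had 24.0 and 26.4 against 157, and Gja1 23.6 and 316 against 1.03.

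**Figure D5:**
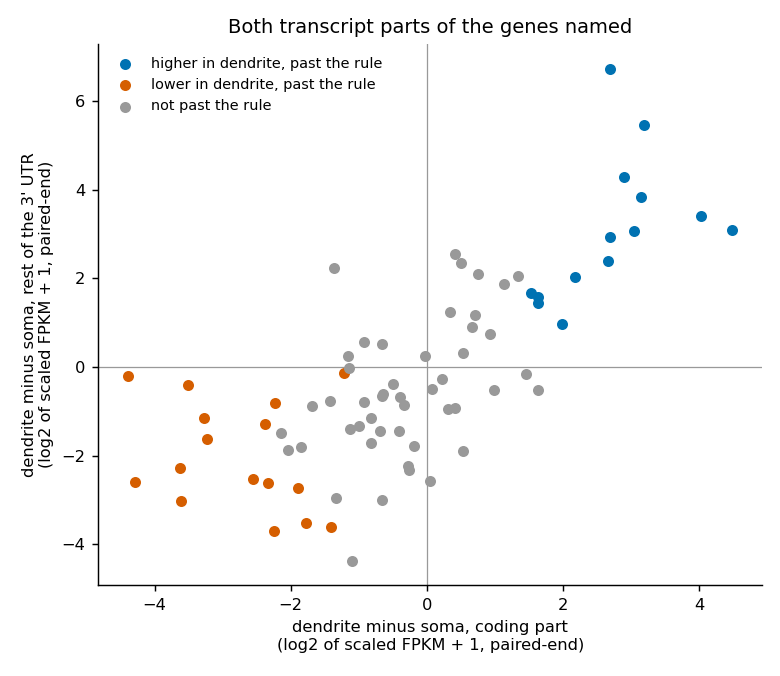
Difference of the mean of both dendrite libraries from the soma library (log2 of scaled FPKM + 1, paired-end) for the coding part on the x axis and for the remaining 3′ UTR on the y axis, for the genes reported here by the rule for naming whose rest of the 3′ UTR had a mean of at least 1. The 14 genes past the rule upwards lie in the upper right and the 16 past it downwards in the lower left, and 34 of the 48 others had the same sign in both parts.

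The ribosome-bound RNA was measured in separate libraries, of which 3 share behaviour, layer and number with the supernatants and are thus not independent of them by their labels. Between the 4 dendrite and 4 soma immunoprecipitates, 206 of the 263 higher genes (78.3%) had a positive mean difference, against 1293 of 2768 (46.7%) of all genes, and 51 of the 235 lower genes (21.7%) did. Without those 3 libraries, which leaves 2 dendrite and 3 soma immunoprecipitates, the shares were 73.0% of the higher genes, 53.9% of all genes and 35.3% of the lower genes. Without fear conditioned dendrite immunoprecipitate 1 these shares were 61.2%, 37.0% and 18.3%. Without home cage soma immunoprecipitate 2 they were 76.8%, 43.2% and 19.1%; both libraries were picked for leaving out after their values were seen. Camk2a averaged 285 ± 245 in the dendrite and 31.4 ± 23.0 in the soma immunoprecipitates (SD over 4 libraries each). The astrocytic Glul averaged 44.0 ± 9.34 and 2.08 ± 1.04 there. Of the 23 astrocyte markers 20 had a positive difference in the immunoprecipitates, with a median of 0.63, and of the 24 dendritic mRNAs 18 did, with a median of 1.02.

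Depth differed between the libraries. The steps between low FPKM values, read by a rule set after the values were seen, put the paired-end runs at about 34.9 and 35.4 M reads for the dendrite libraries and 24.6 M for the soma library, and the single-end runs at 10.6, 7.23 and 6.95 M. Of the genes compared, 118 were listed at 0 in the soma library, against 39 and 52 in the dendrite libraries. The soma library was at 0 in 28 of the 263 higher genes, and a dendrite library in 22 of the 235 lower genes. A single gene took up to 25.4% of the summed FPKM in the paired-end run (Gm3168, home cage dendrite) and up to 38.5% in the single-end run (Rpph1, soma). The part of depth in the differences was not tested. Across genes, and with genes no independent replicates, the log2 levels of the runs of a library correlated with r = 0.79, 0.52 and 0.65 for the home cage dendrite, conditioned dendrite and soma libraries. The levels of the dendrite libraries correlated with each other with r = 0.54 in the paired-end run. Their difference correlated between the runs with r = 0.15. For the home cage and conditioned dendrite differences from the soma library this r was 0.56 and 0.46. At the threshold, Rad52 was just inside the upward rule with a smaller difference of 1.001 and BC071253 just outside with 0.9975. Plk2 was just inside the downward rule with -1 and Fam49b just outside with -0.9985.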

How the data were processed

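Ribosomes were immunoprecipitated with an antibody to GFP, and the supernatant RNA was amplified with a Nugen kit before Illumina library preparation, per the labels' protocols. The authors deposited FPKM per gene for paired-end and single-end runs, with transcripts divided into a coding part and the rest of the 3′ UTR. Tools listed without roles in the submitters' processing notes are Cufflinks 2.0.2, STAR 2.1.1d and CASAVA 1.9, with build mm9. FPKM are not counts and the libraries carry no molecular identifiers, so that amplification duplicates stay in, no count test was run and no counting interval is given.

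From the deposited FPKM, each table was scaled by the median ratio to the geometric mean over the 3 supernatants (8142 genes in the paired-end and 8583 in the single-end table). Genes with a mean under 1 were left out, 1 was added before log2, and limma 3.58.1 (R 4.3.3, trended prior) was fitted to the 2768 remaining genes and tested on simulated data. Immunoprecipitates were scaled apart over 870 genes. The members of the 36 gene lists and all rules were chosen with earlier results of these data known. Of 723 symbols 19 had no row. Genes named are the 15 largest differences each way among those past the rule with means of at least 10 (paired-end) and 5 (single-end) in the higher group and models of at least 300 bases (60 upward and 42 downward genes qualified), the 4 most abundant of each list and 17 fixed genes; other list members were named after their values were seen, and some genes are not reported here. Alternatives changed the scaling, pseudocount, minimum, run, transcript part and libraries. Coordinates come from the authors' mm9 annotation.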

Additional observations from a re-analysis of the deposited data

Results flagged for a closer look

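The values set apart here all lie in the immunoprecipitates and are listed only for fixed genes of the naming rule. They come from groups of 4 libraries of a layer. In each, the highest library stood away from the rest by more than Dixon's critical share of the group's range. Chance marks about 1 in 20 such groups where values are normally distributed. Where the other libraries are at 0, any single value above 0 is marked. The number of groups screened is not given, so the number expected by chance is not known. Other named genes had larger gaps that are not listed. Rpsa reached 80307 in a soma immunoprecipitate, with the next at 1672. Snap25 reached 861 in a dendrite immunoprecipitate, with the next at 41.1. In dendrite immunoprecipitates the highest scaled FPKM was 25.4 for Arc, 0.429 for C1qa, 0.996 for Cldn5 and 115 for Ttr, with the next library at 0.75, 0, 0 and 0. In soma immunoprecipitates it was 22.5 for Mbp, 97.2 for Shank1, 0.0443 for C1qa, 0.0465 for Cldn5, 14.1 for Ttr and 77.5 for Meg3, with the next library at 4.23, 14.5, 0, 0, 0.83 and 3.81. C1qa and Cldn5 are therefore seen in 1 library of each layer, at levels under 1.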

How the results depend on the processing

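The supernatants are 2 dendrite libraries and 1 soma library, so calls rest on 1 soma library and no replicate spread of the soma layer is known. No paired analysis was possible because the 3 supernatants all carry the replicate number 2 and no group has a second one. The upward and downward counts of 263 and 235 became 398 and 128 with FPKM as deposited, 47 and 54 with a pseudocount of 5, 95 and 49 with a minimum of 5, and 485 and 367 with size taken from the single-end run. The upward count was 496 with a pseudocount of 0.1, and the downward count 112 with a difference of at least 1 in both runs. Leaving out a dendrite library gave 346 to 788 upward and 435 to 488 downward genes: without the home cage library the counts were 788 and 435, and without the conditioned one 346 and 488. Both counts stayed within 1.5-fold with no minimum, models of at least 300 bases, the rest of the 3′ UTR and a scaling over genes of at least 1 (312 and 216, added after the data were seen). Shared with the main calls were 89 upward and 50 downward genes in the rest of the 3′ UTR and 176 and 105 with single-end size. In limma over all 11 libraries 80 genes had an adjusted p under 0.05, 24 higher and 56 lower, and all 80 had an immunoprecipitate mean under 1, as had 1219 of the 2768 genes; the other alternatives gave 0. Among the genes of the naming rule that an alternative could recompute, 79 (rest of the 3′ UTR) to 135 genes, none past the difference rule changed sign. The rule itself fixes that sign under another pseudocount or minimum, with single-end size or without a dendrite library. Only the changes of scaling and of transcript part could have altered it. The other genes in the text were not recomputed. With FPKM as deposited 9 of 134 named genes, none of them past the rule, and 8 of 33 list medians had the other sign.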
